A study of Mus musculus with 5 samples.

Results

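The mRNAs described here encode the translation initiation and elongation factors of the mouse cytosol, together with the enzymes that modify the elongation factors. They were found by symbol in the count table of an RNA-seq experiment, as protein-coding genes whose names begin with Eif1 to Eif6 or with Eef1 or Eef2. The exon junction helicase Eif4a3, the eIF2 kinases, the eIF4E-binding proteins and the eIF4E transporter were left out. The rule used no measured value and found 60 genes among the 55573 in the table. Neuro-2A cells (N2A), which derive from a neuroblastoma of the mouse and are readily transfected, had been transfected with 60 pmol of siRNA. The siCtl group received a commercial negative control siRNA and had 2 libraries (replicates 1 and 3). The siUpf1 group received a single siRNA against Upf1, which encodes the RNA helicase needed for nonsense-mediated mRNA decay (NMD), and had 3 libraries (replicates 1, 2 and 3). Poly(A)-selected, strand-specific libraries held between 20402205 and 27717594 reads assigned to genes.

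Translation of an mRNA begins when eIF4F binds its 5′ cap and the small ribosomal subunit, carrying eIF1, eIF1A, eIF3, eIF5 and the initiator tRNA held by eIF2 and GTP, scans to the start codon. eIF2B recharges eIF2 with GTP, and this exchange is the step that the integrated stress response blocks. In elongation, eEF1A delivers aminoacyl-tRNA to the ribosome, the eEF1B subunits recharge eEF1A with GTP, and eEF2 moves the ribosome by a codon. NMD depends on translation, since a stop codon is read as premature by a terminating ribosome. Several elongation factor mRNAs, like ribosomal protein mRNAs, start with a run of pyrimidines (a 5′ TOP motif) through which their translation is controlled.

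Upf1 itself was at 5217 and 5243 normalised read counts in siCtl replicates 1 and 3 and at 2403, 2496 and 2449 in siUpf1 replicates 1, 2 and 3. The groups did not overlap, and 46.8% of the siCtl mean remained (log2 fold change -1.10 ± 0.051 (SE), DESeq2 Wald test, adjusted p = 7.27e-101). Normalised read counts are the counts divided by each library's DESeq2 size factor. All 8 neuroblastoma and neuronal markers had a mean over 10 normalised counts, with a sum of 36026 to 36391 in siCtl and 41164 to 43497 in siUpf1. The sums were 288 to 306 against 223 to 258 for 6 fibroblast markers (3 over 10), 475 to 508 against 529.5 to 559.8 for 5 glial markers (3 over 10) and 37.7 to 39.8 against 33.0 to 35.1 for 3 leukocyte markers (1 over 10). The part of these differences in the results that follow was not tested. In bulk RNA, fewer cells of a type and less RNA per cell cannot be told apart. The labels do not say whether libraries came from separate cultures, so p-values measure the spread between these libraries, which may be technical.

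Translation factor mRNAs were mostly lower after the Upf1 knockdown. Of the 60 genes, 58 could be tested, 34 were called lower, 5 were called higher and 19 were not called at a DESeq2 adjusted p-value under 0.05. Over all 15581 genes tested, 22.3% were called lower and 21.4% higher. The median log2 fold change (siUpf1 over siCtl) was -0.22 over the 58 members and -0.0008 over all genes tested. Translation factors are abundant, and abundant mRNAs are called more often. Among the 44 members that averaged 1000 or more normalised counts, 29 were lower and 2 were higher, whereas of all 5727 such genes 34.5% were lower and 30.6% higher, with medians of -0.24 and -0.02. The siCtl and siUpf1 libraries did not overlap for 46 of the 58 members, 40 lower and 6 higher, beside 68.5% of all genes tested. At a mean of 1000 or more, they did not overlap for 36 of the 44 members and for 4615 of all 5727 genes, which are similar shares. The changes were modest in size, between -0.75 for Eif2s2 and 0.75 for Eif4e2. In each siUpf1 library, between 45 and 49 of the 58 members lay below their siCtl mean. These counts all use the same siCtl mean and so are not independent of each other. No such share was computed over all genes tested.

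**Figure D1:**
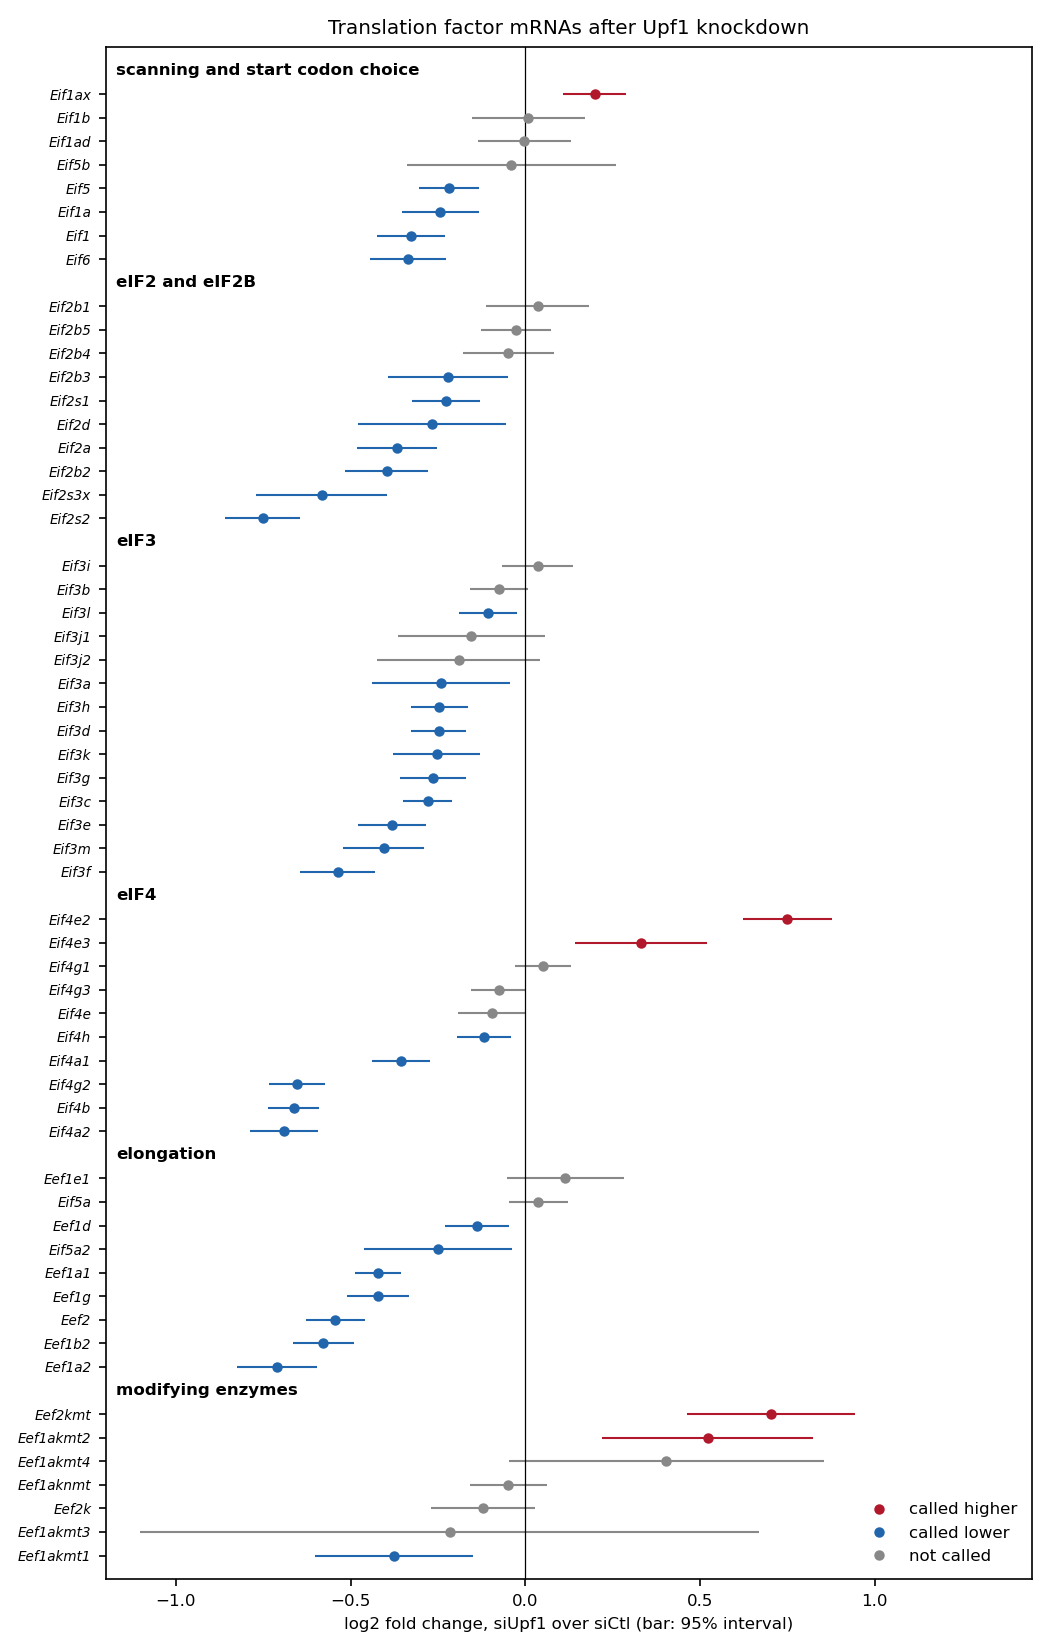
Log2 fold change of siUpf1 over siCtl (horizontal axis) for the 58 members tested, in 6 groups by role; points are DESeq2 estimates and bars their 95% intervals over 2 siCtl and 3 siUpf1 libraries. Blue points (34) were called lower, red points (5) higher and grey points (19) were not called.

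Together the 60 genes took 2.49% and 2.54% of the assigned reads in siCtl replicates 1 and 3, and 2.06%, 2.00% and 2.00% in siUpf1 replicates 1, 2 and 3. Elongation factors held the greater part of this difference, with 1.18% and 1.20% in siCtl and 0.914%, 0.907% and 0.886% in siUpf1. The eIF4 genes took 0.549% and 0.546% of the siCtl reads and 0.442%, 0.423% and 0.445% of the siUpf1 reads. The eIF3 genes took 0.473% and 0.498% against 0.430%, 0.415% and 0.419%. The groups did not overlap for any of these shares, which are of raw counts and need no size factor. No test was made of them.

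Of the 8 factors for scanning, start codon choice and subunit joining, 4 were lower, 1 was higher and 3 were not called, with a median log2 fold change of -0.13. Eif1 (chr11:100319885-100322096, plus strand, build GRCm38), which keeps the scanning complex open until the start codon is found, was at 12857 and 13401 normalised counts in siCtl and 10339, 11115 and 9963 in siUpf1. Every siUpf1 library lay below both siCtl libraries (log2 fold change -0.33 ± 0.049, DESeq2 adjusted p = 2.81e-10). Eif1 was also the member of this group with the highest level per length, 9931 normalised counts per kilobase of transcript in siCtl. Its value is uncertain, since 19.2% of the 100-base windows of its transcript were identical to other genes, Gm10157 and Gm16378 among them. Eif6 (chr2:155819832-155826925, minus strand), which keeps the large ribosomal subunit from joining too early, went from 3707 and 3771 normalised counts to 2866, 3118 and 2922, with no overlap (-0.33 ± 0.055, adjusted p = 1.18e-08). Eif5, the GTPase-activating protein of eIF2, was at 8139.6 and 8212 in siCtl and at 7225, 6936 and 6912 in siUpf1 (-0.22 ± 0.043, adjusted p = 2.53e-06).

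eIF1A, which speeds scanning and the loading of the initiator tRNA, is encoded by 2 genes in the list that moved in opposite directions. Eif1ax, on the X chromosome (chrX:159372178-159389928, plus strand), was at 5592 and 5405 normalised counts in siCtl and rose to 6485, 6171 and 6265 in siUpf1 (log2 fold change 0.20 ± 0.046, DESeq2 adjusted p = 8.04e-05). The autosomal Eif1a was at 2862 and 2911 and fell to 2505, 2367 and 2439 (-0.24 ± 0.057, adjusted p = 7.34e-05). Neither gene's siCtl and siUpf1 libraries overlapped. The eIF1 paralog Eif1b was at 934 and 943 in siCtl and 919.6, 979 and 937 in siUpf1, and was not called (0.01 ± 0.082, adjusted p = 0.953). Eif1ad, which has an eIF1A-like domain, was likewise not called, at 1504 and 1547 against 1502, 1561 and 1509. Eif5b, the GTPase that joins the subunits, varied more between libraries than the other members of this group, at 6469 and 7369 against 7736, 6189 and 6270.2, and its groups overlapped (-0.04 ± 0.15, adjusted p = 0.870). Without siUpf1 replicate 1, the highest library, Eif5b was called lower (-0.15, adjusted p = 0.0322).

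The subunits of eIF2, the GTPase that carries the initiator tRNA, were lower. Eif2s2 (chr2:154871410-154892935, minus strand), the beta subunit, had the lowest log2 fold change of all 58 members. It was at 6146 and 6597 normalised counts in siCtl and at 3967, 3773 and 3617 in siUpf1, so that 59.4% of the siCtl mean remained (-0.75 ± 0.055, DESeq2 adjusted p = 2.67e-41). It also had the highest level per length among the eIF2 and eIF2B genes, 2507 normalised counts per kilobase of transcript in siCtl. The X-linked gamma subunit Eif2s3x (chrX:94188707-94212862, minus strand) went from 1021 and 988 to 613, 738 and 668 (-0.58 ± 0.095, adjusted p = 8.15e-09). Both values are uncertain, since 18.8% of the 100-base windows of Eif2s2 were identical to Gm9892 and 35.3% of those of Eif2s3x to Gm2223. Eif2s1, the alpha subunit that is phosphorylated in the integrated stress response, fell less, from 5586 and 5679 to 4838, 5000.2 and 4608 (-0.23 ± 0.050, adjusted p = 2.38e-05). None of the 3 overlapped between groups. The Y-linked gamma subunit Eif2s3y had 0 reads in all 5 libraries.

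Of the 5 subunits of the exchange factor eIF2B, 2 were lower and 3 were not called, with a median log2 fold change of -0.05. Eif2b2, a regulatory subunit, was at 2622 and 2708 normalised counts in siCtl and at 1958, 2109 and 2015 in siUpf1 with no overlap (-0.40 ± 0.060, DESeq2 adjusted p = 4.86e-10). Eif2b5, the catalytic subunit, was at 3310.3 and 3349 against 3254, 3325 and 3231 and its groups overlapped (-0.03 ± 0.052, 95% interval -0.13 to 0.07). Eif2b1 (0.04) and Eif2b4 (-0.05) were not called either, and Eif2b3 was called lower (-0.22 ± 0.088, adjusted p = 0.0301) but not when any 1 of the 5 libraries was left out (adjusted p from 0.0530 to 0.327). Outside these complexes, Eif2a, which encodes an alternative initiation factor, went from 2815 and 2821 to 2272, 2139.9 and 2143 (-0.37 ± 0.058, adjusted p = 3.02e-09). Eif2d, a recycling and reinitiation factor, was called lower (-0.27 ± 0.11, adjusted p = 0.0332), and this call was lost without either siCtl library or without siUpf1 replicate 1 or 3 (adjusted p from 0.0880 to 0.306).

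eIF3, the many-subunit scaffold of the small ribosomal subunit, showed 10 of its 14 genes lower and none higher, with a median log2 fold change of -0.25 (DESeq2; 4 not called). Eif3f (chr7:108934417-108942951, plus strand) was lower by the greatest margin, at 6119.6 and 6303 normalised counts in siCtl and 4229.8, 4562 and 4065 in siUpf1 (-0.54 ± 0.054, adjusted p = 9.53e-22). Eif3m followed, from 2649.9 and 2798 to 2067, 2101 and 2007 (-0.41 ± 0.060, adjusted p = 9.26e-11), and then Eif3e, from 6899.5 and 7079.5 to 5555, 5428 and 5120.3 (-0.38 ± 0.049, adjusted p = 8.58e-14). All 3 were without overlap. Eif3d, the cap-binding subunit, had the highest level per length in the group (9524 normalised counts per kilobase in siCtl) and went from 17939.6 and 18232 to 14775, 15697 and 15224 (-0.25 ± 0.040, adjusted p = 5.79e-09).

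The core subunit Eif3c (-0.28), Eif3g (-0.26), Eif3h (-0.25) and Eif3k (-0.25) fell by similar amounts, although the call of Eif3k was lost without siCtl replicate 3 (DESeq2 adjusted p = 0.0798). Eif3a, the largest subunit, and Eif3l were called lower at adjusted p-values of 0.0392 and 0.0278. Eif3a lost its call without siCtl replicate 3 or siUpf1 replicate 2 or 3 (adjusted p from 0.0982 to 0.180), and Eif3l without any library except siUpf1 replicate 2 (0.0589 to 0.331). Eif3b, a core subunit with an RNA recognition motif, was at 18532 and 19449.8 against 17483, 18704 and 17895 and was not called (-0.08 ± 0.043, adjusted p = 0.147), except without siUpf1 replicate 2 (adjusted p = 0.0440). Eif3i, a WD-repeat subunit, was at 4375 and 4598 against 4438, 4782 and 4588 (0.04 ± 0.052, 95% interval -0.07 to 0.14).

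The duplicated subunit genes Eif3j1 and Eif3j2 cannot be separated well by reads. Of the 100-base windows of the representative Eif3j2 transcript, 84.0% were identical to a stretch of Eif3j1, and 36.0% of the Eif3j1 windows were identical to Eif3j2. Eif3j1 was at 635 and 629 normalised counts in siCtl and 624, 522 and 554 in siUpf1, and Eif3j2 was at 509 and 589.6 against 533, 441 and 469.8. Neither was called (-0.15 ± 0.11 and -0.19 ± 0.12).

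**Figure D2:**
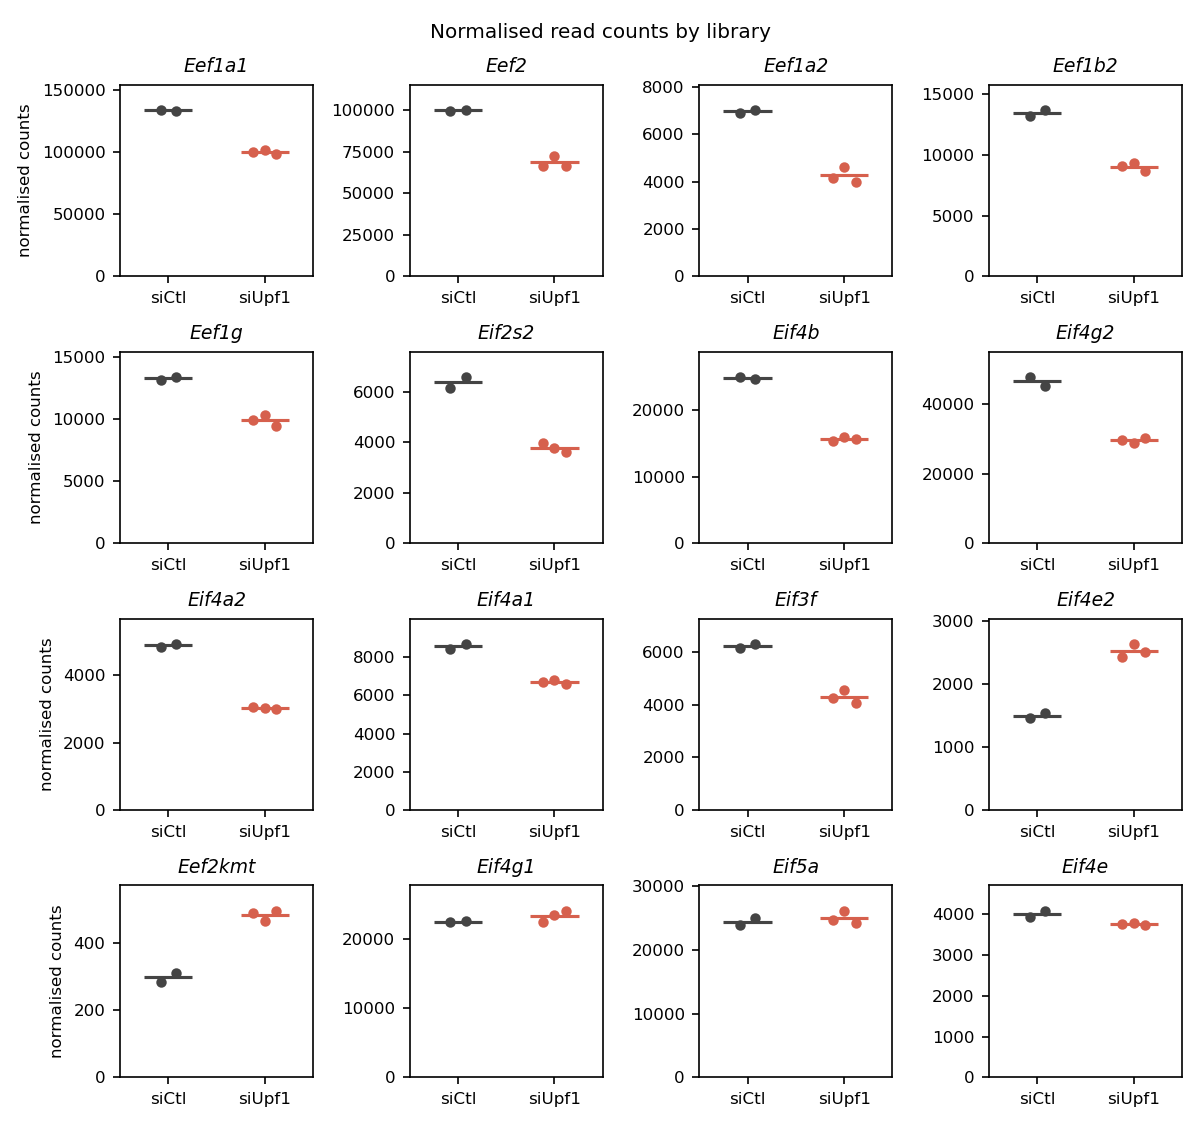
Normalised read counts (vertical axes, from 0) of 16 members in each library, with 2 siCtl points in grey and 3 siUpf1 points in red and lines at the group means. Eef1a1 to Eif3f lie lower in every siUpf1 library, Eif4e2 and Eef2kmt lie higher, and Eif4g1, Eif5a and Eif4e were not called.

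The eIF4 genes, which encode the cap-binding complex and its helicase, did not move one way. Of 10 tested, 5 were lower, 2 were higher and 3 were not called, with a median log2 fold change of -0.11 and a median size of 0.34 without regard to sign, against 0.29 for all genes tested. The helicase Eif4a2 (chr16:23107444-23114136, plus strand), the minor paralog of the cap-complex helicase, went from 4836 and 4942 normalised counts in siCtl to 3067, 3032 and 2989 in siUpf1 (-0.69 ± 0.050, DESeq2 adjusted p = 3.42e-42). Eif4b (chr15:102073773-102097173, plus strand), a cofactor that stimulates the helicase, went from 25105 and 24730.3 to 15478, 16007 and 15752 (-0.66 ± 0.037, adjusted p = 3.87e-69). Eif4b had the highest level per length of the group, 6465 normalised counts per kilobase in siCtl, and 63.2% of its siCtl mean remained. The related cofactor Eif4h was called lower with a smaller change, at 12553 and 12761 against 11524, 11931 and 11544 (-0.12 ± 0.040, adjusted p = 0.00833). The call of Eif4h was lost without either siCtl library or siUpf1 replicate 3 (adjusted p from 0.0569 to 0.145).

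Eif4a1, the main helicase, was at 8408 and 8690.0 normalised counts in siCtl and 6691, 6766 and 6602 in siUpf1 (log2 fold change -0.35 ± 0.043, DESeq2 adjusted p = 1.41e-15). Its value is uncertain, since 60.8% of its 100-base windows were identical to copies listed as Eif4a-ps4 and Gm5513. Among the scaffolds, Eif4g2 (chr7:111067750-111083030, minus strand), also known as DAP5, which lacks the eIF4E-binding site and serves initiation without eIF4E, went from 47869 and 45074 to 29806, 28699.7 and 30158 (-0.65 ± 0.041, adjusted p = 6.25e-56). Eif4g1, the scaffold of eIF4F, was at 22500.5 and 22542 against 22468, 23415 and 24114, with groups that overlapped (0.05 ± 0.040, 95% interval -0.03 to 0.13). Eif4g3 was at 12148 and 12016 against 11379, 11248 and 11763 and was not called either (-0.08 ± 0.040, adjusted p = 0.120).

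Of the cap-binding proteins, the 2 that were higher were the alternative ones. Eif4e2 (chr1:87213914-87240488, plus strand), or 4EHP, which binds the cap without eIF4G and represses translation, was at 1464 and 1539.7 normalised counts in siCtl and at 2429.8, 2647 and 2507 in siUpf1. Every siUpf1 library lay far above both siCtl libraries, and the mean was 168.3% of that in siCtl (log2 fold change 0.75 ± 0.065, DESeq2 adjusted p = 3.47e-29). Eif4e3 was at 624 and 639.6 against 848, 788 and 746 (0.33 ± 0.096, adjusted p = 0.00201), a call lost without siCtl replicate 1 (adjusted p = 0.0620). Eif4e, the cap-binding subunit of eIF4F, was at 3929.8 and 4079 against 3742, 3776 and 3728 and was not called (-0.10 ± 0.050, adjusted p = 0.108). The oocyte paralog Eif4e1b had 0 to 4 reads in a library and was not tested.

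Elongation factor mRNAs were lower. All 6 genes for the eEF1 subunits and eEF2 were called lower, with a median log2 fold change of -0.48. Among all 9 elongation genes, 7 were lower, none was higher and 2 were not called (median -0.42). Eef1a1 (chr9:78478449-78489151, minus strand), the GTPase that brings aminoacyl-tRNA, had the highest level per length of all members at 74571 normalised counts per kilobase in siCtl. It was at 134371 and 133188 normalised counts in siCtl and at 100178, 101418 and 98298 in siUpf1 (-0.42 ± 0.034, DESeq2 adjusted p = 4.15e-34). As 26.7% of its 100-base windows were identical to pseudogenes, its level is uncertain. Eef2 (chr10:81176631-81182498, plus strand), the translocase, was next per length with 32385 per kilobase, and went from 99567 and 100504 to 66726, 72657 and 66501 (-0.54 ± 0.043, adjusted p = 8.65e-35). Only 2 of the 2990 Eef2 windows were shared with another gene.

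Eef1a2 (chr2:181147653-181157014, minus strand), the eEF1A form that neurons and muscle take up as they mature, was at 6908 and 7050.3 normalised counts in siCtl and 4162, 4639 and 4002 in siUpf1 (log2 fold change -0.71 ± 0.058, DESeq2 adjusted p = 1.38e-32). Eef1b2 (chr1:63176825-63180486, plus strand), the exchange subunit of eEF1B, went from 13208 and 13718 to 9079, 9309 and 8683 (-0.58 ± 0.044, adjusted p = 2.41e-37). Eef1g, the scaffold of eEF1B, went from 13107 and 13393 to 9935, 10318 and 9434 (-0.42 ± 0.046, adjusted p = 4.25e-19), with 49.4% of its windows shared with pseudogenes. Each of the 3 was lower in every siUpf1 library. Eef1d, the other exchange subunit, fell less (-0.14 ± 0.047, adjusted p = 0.00885), and its call was lost without siCtl replicate 3 (adjusted p = 0.173) or siUpf1 replicate 1 (0.0510). Of the Eef1d windows, 9.76% were shared with Naprt or Gm11675.

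eIF5A, the hypusine-containing factor that helps the ribosome through difficult stretches, is encoded by Eif5a and Eif5a2. Eif5a, which was not called, was the third most abundant member per length (16952 normalised counts per kilobase in siCtl), and was at 23835 and 24884 normalised counts in siCtl and 24713, 26117 and 24146 in siUpf1. The groups overlapped, and the 95% interval of its log2 fold change was -0.05 to 0.12 (DESeq2 estimate 0.04). Its rare paralog Eif5a2 was at 655 and 576 against 531, 491 and 527 (-0.25 ± 0.11, adjusted p = 0.0468), and this call was lost when any 1 of the 5 libraries was left out (adjusted p from 0.0623 to 0.448). Eef1e1, which despite its symbol is AIMP3 of the tRNA synthetase complex, was at 897 and 948 against 986, 946 and 1062 and was not called.

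The enzymes that modify the elongation factors did not move one way. Of 7, 2 were higher, 1 was lower and 4 were not called, with a median log2 fold change of -0.05. Eef2kmt (chr16:5244152-5255983, minus strand), a lysine methyltransferase of eEF2, was at 285 and 309 normalised counts in siCtl and at 489, 466 and 497 in siUpf1, with no overlap (0.70 ± 0.12, DESeq2 adjusted p = 6.31e-08). Eef1akmt2, which methylates eEF1A, went from 217 and 197 to 326, 276 and 287 (0.52 ± 0.15, adjusted p = 0.00230), a call lost without siCtl replicate 3 (adjusted p = 0.0968). Eef1akmt1, another such enzyme, was lower, at 513 and 486 against 392, 377 and 383 (-0.38 ± 0.12, adjusted p = 0.00337), though not without siCtl replicate 1 (0.0974).

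Eef1aknmt had the highest level per length among these enzymes at 571 normalised counts per kilobase in siCtl, and was not called (-0.05 ± 0.056). Eef2k, the kinase that inhibits eEF2, was at 1402 and 1274 against 1191, 1250.0 and 1249.8 (-0.12 ± 0.076, adjusted p = 0.202). Eef1akmt4 was at 108 and 84.9 against 118, 147 and 119 (0.40 ± 0.23, adjusted p = 0.151). edgeR's quasi-likelihood test called Eef1akmt4 higher (adjusted p = 0.0392), and 38.5% of its windows were shared with the overlapping gene Gm49333. Eef1akmt3 had 17.6 to 36.5 normalised counts in a library, too few to show a difference of less than about its 95% interval of -1.10 to 0.67.

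The log2 ratio between paralogs did not overlap between the siCtl and siUpf1 libraries in 9 of the 10 pairs that could be compared. Among single genes tested, 68.5% did not overlap, and no such share was computed for other pairs of genes. Each such pair gave an exact two-sided permutation p of 0.1, the smallest that 2 libraries against 3 allow, so that none could pass a threshold of 0.05, and p-values were not adjusted over the pairs. These log2 ratios are formed within a library and do not depend on size factors. Per transcript length, Eif4e2 made up 50.7% and 51.0% of the Eif4e2 and Eif4e sum in siCtl and 64.2%, 65.9% and 65.0% in siUpf1 (difference in log2 ratio 0.85). These shares depend on the length used: per union exon length, Eif4e2 made up 23.0% and 23.2% in siCtl and 34.2%, 36.0% and 35.0% in siUpf1, with the same difference in log2 ratio. Eif4g2 made up 60.0% and 58.5% of the sum with Eif4g1 in siCtl and 48.3%, 46.4% and 46.9% in siUpf1 (-0.70). By these lengths, Eif4g2 was the more abundant of the 2 scaffold mRNAs in siCtl and Eif4g1 in siUpf1.

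Eif1a made up 48.0% and 49.3% of the eIF1A mRNA per length in siCtl and 41.1%, 40.9% and 41.3% in siUpf1 (-0.44). Eif4a2 made up 31.6% and 31.4% of the helicase sum with Eif4a1 in siCtl and 26.9%, 26.5% and 26.7% in siUpf1 (-0.34). Eef1a2 remained a small share of eEF1A, 4.24% and 4.36% against 3.45%, 3.79% and 3.39% (-0.29). The difference was positive for Eif4e3 over Eif4e (0.42) and Eif1b over Eif1 (0.34), and negative for Eif4g3 over Eif4g1 (-0.13) and Eif5a2 over Eif5a (-0.29). The last of these depended on the siCtl libraries, being -0.16 without siCtl replicate 1 and -0.41 without siCtl replicate 3. Eif3j2 over Eif3j1 overlapped between groups (-0.03, exact permutation p = 0.7).

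**Figure D3:**
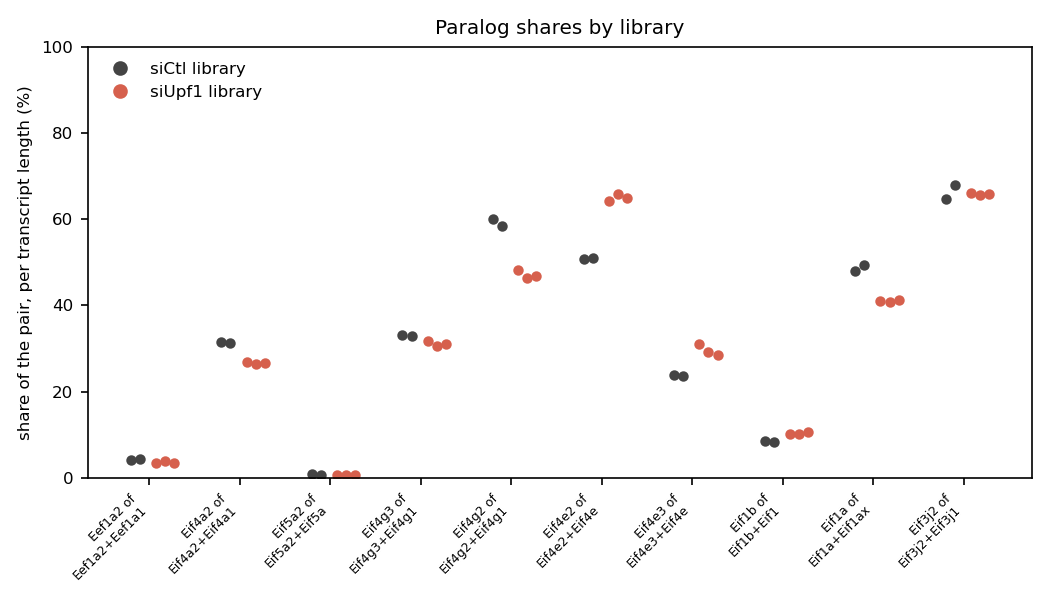
Share of the named paralog in the sum of its pair, in percent and per length of the representative transcript (vertical axis), in each siCtl library (grey) and each siUpf1 library (red) for 10 pairs. Eif4e2 lies at 50.7% to 51.0% in siCtl and 64.2% to 65.9% in siUpf1, Eif4g2 at 58.5% to 60.0% and 46.4% to 48.3%, and Eif3j2 overlaps.

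Cytosolic ribosomal protein genes, the most similar set of the translation machinery, had 67 of 82 tested genes lower and 1 higher, with a median log2 fold change of -0.28 (DESeq2). The 20 cytosolic aminoacyl-tRNA synthetase genes had 14 lower and 2 higher (median -0.19). The 10 translation factors of mitochondria, which serve mitochondrial ribosomes, had 1 lower and none higher (median 0.03), the lower gene being the elongation factor Gfm1 (-0.19 ± 0.050, adjusted p = 0.000730). The difference between these sets and the 58 members was not tested.

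**Figure D4:**
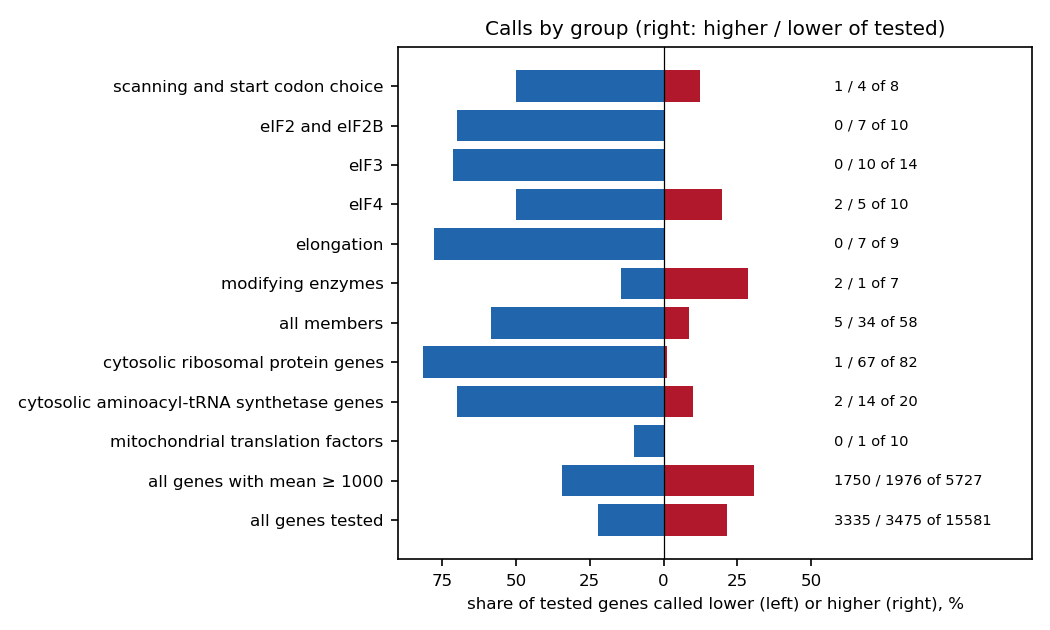
Share of the tested genes in each set that were called lower (blue, to the left) or higher (red, to the right) in siUpf1, in percent, with the numbers called higher and lower of those tested at the right. All members (5 higher and 34 lower of 58) and ribosomal protein genes lie mostly to the left, whereas all 15581 genes tested are nearly even.

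Regulators of the factors were counted in lists outside the rule. Over 6 cytosolic lists with 53 genes, 51 were tested, 18 were lower (35.3%) and 10 were higher (19.6%), beside 22.3% and 21.4% of all genes tested, with a median log2 fold change of -0.04. The difference between these lists and the 58 members was not tested. Among the 10 regulators of eIF4E and eIF4A, 6 were lower and 1 was higher. Pdcd4, an inhibitor of the eIF4A helicase, was at 921 and 941 normalised counts in siCtl and 510.5, 478 and 415 in siUpf1 (-0.99 ± 0.11, DESeq2 adjusted p = 6.76e-20). Eif4ebp2, which sequesters eIF4E, went from 3389 and 3362 to 1902, 1978 and 1841 (-0.83 ± 0.058, adjusted p = 6.18e-44), and Eif4ebp1 fell less (-0.19 ± 0.051, adjusted p = 0.000639). Mknk2, a kinase of eIF4E, was higher, at 1632 and 1712 against 2410.2, 2654 and 2535 (0.60 ± 0.065, adjusted p = 5.80e-19). For each of these the libraries of the groups did not overlap.

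In the list of eIF2 kinases and phosphatase subunits, 2 of 7 tested genes were lower (28.6%) and 1 was higher (14.3%). Over all genes tested, 22.3% were lower and 21.4% higher. The 4 kinases themselves (Eif2ak1 to Eif2ak4) were not called, at log2 fold changes of -0.15 to -0.12. Impact, which the list also held, fell from 6301 and 6443 normalised counts in siCtl to 5319, 4856 and 4908 in siUpf1 (-0.34 ± 0.051, DESeq2 adjusted p = 2.69e-10). The phosphatase subunits went apart. Ppp1r15a, the stress-induced subunit, fell from 6148 and 6128 normalised counts to 4726, 4862 and 4549 (-0.38 ± 0.048, DESeq2 adjusted p = 1.64e-14), and Ppp1r15b, the constitutive one, rose from 4176 and 3927 to 5284, 5293 and 5389 (0.39 ± 0.049, adjusted p = 1.15e-14). Poly(A)-binding protein genes included Pabpc1, which went from 26943 and 26166 to 19526, 20387 and 19286 (-0.43 ± 0.040, DESeq2 adjusted p = 9.45e-26). In that list, 3 of 7 tested genes were lower (42.9%) and 1 was higher (14.3%).

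Of 9 termination and recycling factors, 2 were lower and 2 higher (22.2% each), close to the shares of all genes tested. The release factor Etf1 fell (log2 fold change -0.26 ± 0.044, DESeq2 adjusted p = 3.19e-08), as did its partner Gspt1 (-0.18), whereas the recycling factor Abce1 (0.39 ± 0.048, adjusted p = 5.50e-15) and Pelo (0.32 ± 0.090, adjusted p = 0.00124), which rescues stalled ribosomes, rose. Of 9 enzymes that make hypusine on eIF5A and diphthamide on eEF2, 3 were lower (33.3%) and none higher, beside 22.3% and 21.4% of all genes tested. The lower ones were Dph1, Dph2 and Dnajc24, at -0.30, -0.22 and -0.49. Of 9 further ribosome-associated regulators, 5 were higher (55.6%) by 0.10 to 0.19 (Bzw1, Bzw2, Abcf1, Ddx3x and Ddx6). The 2 that were lower (22.2%) were Rack1 (-0.39) and Tpt1 (-0.40).

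Sequence around the annotated start was compared next, since elongation factor mRNAs are known for their pyrimidine-rich starts. RefSeq windows of 250 bases before to 50 after each start (build GRCm38.p6) were held for 46 of the 60 members. A run of C followed by at least 4 pyrimidines, beginning within 10 bases of a start, was in 14 of the 46 (30.4%). It was in 34.4% of all genes, 37.2% of tested genes and 61.9% of ribosomal protein genes. Within 25 bases, a window added after seeing the data, such a run was in 25 of 46 (54.3%). It was in 59.3% of all genes, 60.4% of tested genes and 85.7% of ribosomal protein genes. The windows shown, each around the longest run, are from members that were lower (Eef1a1, Eef1a2, Eif3f, Eif2s3x) and from Eif4g1, Eif4e and Eif2b5, which were not called. They are 30 bases long on the strand of the gene, with the pyrimidine run in capitals and the position of its first base, counted from the annotated start:
Eef1a1, chr9:78481708-78481737, minus strand, run from -5: tggctccgCCCTCTTCCCgagggtggggga
Eef1a2, chr2:181156977-181157006, minus strand, run from 18: cactggttCTCTCCCTCgctccggtgcatc
Eif3f, chr7:108934403-108934432, plus strand, run from -4: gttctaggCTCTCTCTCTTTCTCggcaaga
Eif2s3x, chrX:94212631-94212660, minus strand, run from -1: agcattttCCTTTTCTCTCCgagcaagatg
Eif4g1, chr16:20672695-20672724, plus strand, run from -24: cccatgtgCTTCCCCggcgccagcgcagct
Eif4e, chr3:138527248-138527277, plus strand, run from -12: tcctctcgCCCCCCCTTCaggagcggttgt
Eif2b5, chr16:20498794-20498823, plus strand, run from -15: tgcgcattCCTTCCTCTTTCTCTCCCTgca

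The longest runs of Eef1a1, Eif3f and Eif2s3x began within 10 bases of the start. That of Eef1a2 began further downstream and that of Eif2b5 further upstream, and those of Eif4e and Eif4g1 lay wholly upstream of the start. Eif4g1, Eif4e and Eif2b5 were still among the 14 members counted with a run within 10 bases, and Eef1a2 was not. The count took any run or part of a run, at any annotated start of the gene. Of 13 tested members with a run within 10 bases, 6 were lower and 2 higher (median log2 fold change -0.10), and of 32 without one, 19 were lower and 2 higher (median -0.23). Over all tested genes the medians were -0.02 with and -0.02 without a run. A match of this kind is a description of letters near an annotated start, which need not be the start used in N2A cells.

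The E-box CACGTG, which reads the same on both strands and is bound by MYC and related factors, was in the promoter window of 14 of the 46 members (30.4%), beside 8.09% of all genes, 11.4% of tested genes and 9.52% of ribosomal protein genes. Of these 14, 7 were lower and none was higher (median log2 fold change -0.12), and of the 31 tested members without an E-box 18 were lower and 4 higher (median -0.23). Over the 1242 tested genes with an E-box 356 were lower and 275 higher (median -0.05). Examples from members that fell (Eef2, Eif3f, Eif4a1) and from Eif4g1 and Eif5a, which were not called, are shown with the E-box in capitals:
Eef2, chr10:81176576-81176605, plus strand: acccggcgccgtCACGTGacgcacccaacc
Eif3f, chr7:108934335-108934364, plus strand: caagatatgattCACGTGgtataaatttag
Eif4a1, chr11:69672595-69672624, minus strand: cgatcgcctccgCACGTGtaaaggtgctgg
Eif4g1, chr16:20672661-20672690, plus strand: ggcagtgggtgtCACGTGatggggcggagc
Eif5a, chr11:69921443-69921472, minus strand: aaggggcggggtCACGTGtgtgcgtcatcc

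The ATF4-type element TGATGNAA, searched on both strands, was in the windows of 2 of the 46 members (4.35%), Eef2k and Eif2s3x. It was in 4.51% of all genes and in 2.78% of tested genes. Both counts are descriptions of letters in a window and say nothing of factor binding.

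As NMD degrades mRNAs with a premature stop codon, members with an annotated NMD isoform were counted. In GENCODE M21, 14 members had one. Of the 13 tested, 9 were lower and 1 was higher (Eef1akmt2), with a median log2 fold change of -0.27, and of the 45 without one 25 were lower and 4 higher (median -0.22). Over all protein-coding genes tested, 28.8% of the 3655 with such an isoform were lower and 22.9% higher. Counts per gene do not separate isoforms, so a rise of an NMD isoform within a falling gene would not be seen. The members with at least 3 annotated NMD isoforms were Eef1b2 (log2 fold change -0.58), Eif4a2 (-0.69), Eif5 (-0.22) and Eif2d (-0.27). No share called was computed over all genes with as many such isoforms, and a link with their number was not tested.

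A 7-base match to an siRNA seed in a 3′ UTR can lower an mRNA other than the target. The strand complementary to Upf1 and the sense strand of the siRNA used were, with the seed (bases 2 to 8) in capitals:
Upf1 siRNA, strand complementary to Upf1: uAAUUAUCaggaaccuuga
Upf1 siRNA, sense strand: uCAAGGUUccugauaauua

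The representative 3′ UTRs of 3 members (Eif1a, Eif2s1 and Eif2s3x) held a match to the first seed, GATAATT, and 5 members (Eif2s1, Eif4b, Eif4e, Eif4g3 and Eef2k) held a match to the seed of the sense strand, AACCTTG. The matches in the members that fell most are shown on the mRNA strand with the matching bases in capitals:
Eif2s3x, 3′ UTR from base 1615 of 2152 at the match: tggtggttagtGATAATTgacaaggttctg
Eif4b, 3′ UTR from base 845 of 1840 at the match: attattttgaaAACCTTGtcactctggtca

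All 3 members with the first match were lower, and of the 5 with the second, 2 were lower (Eif2s1 and Eif4b) and 3 were not called. Of the 51 tested members with neither, 30 were lower and 5 higher, with a median log2 fold change of -0.22. Over all protein-coding genes tested, the median was 0.003 with the first match, -0.10 with the second and -0.02 with neither. Among all such genes with the first match, 27.05% were called lower and 27.97% higher. The shares were 36.79% lower and 21.71% higher with the second match, and 25.36% lower and 24.06% higher with neither. The part of the seeds in the values of Eif2s3x and Eif4b was not tested.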

How the data were processed

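RNA from N2A cells was sequenced in 2 siCtl and 3 siUpf1 libraries. The authors deposited raw read counts per gene: per the submitters' processing notes and the study's methods, reads were demultiplexed with bcl2fastq, trimmed with fastp, mapped to GRCm38.p6 with STAR 2.7.0f and assigned to exons, strand-specifically, by featureCounts (Subread 1.6.4). Replicates were not pooled, and counts of near-identical genes are uncertain.

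The whole table (28121 genes with a read) was fitted with DESeq2 1.42.0 (R 4.3.3), as in the study's methods: a two-sided Wald test for group, with default size factors and independent filtering, and Benjamini-Hochberg adjustment over all 15581 genes tested. Calls used an adjusted p-value under 0.05. Errors beside log2 fold changes are SEs and 95% intervals are 1.96 SE. edgeR 4.0.16 was an alternative. Others were TMM or total-count factors, a minimum of 10 counts in 2 libraries, no independent filtering, a block for replicate number, shrinkage of fold changes and the omission of each library. Both tools were tested on simulated data.

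Positions, lengths and isoforms came from GENCODE M21 (same build), which matched 99.9% of genes with a read. Each gene's representative transcript was complete (tagged basic) and then ranked by APPRIS; completeness was put first after Eif4g2 was seen with a fragment. Promoter windows came from RefSeq (GRCm38.p6). Paralog ratios were tested with an exact permutation test. Named in full were, in each role group, the 3 members with the largest absolute log2 fold change at a mean of at least 100 normalised counts, the member highest per length and all paralog pairs; other members and genes of the lists could be named. The members and lists were chosen with earlier results of these data known.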

Additional observations from a re-analysis of the deposited data

How the results depend on the processing

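The log2 fold change of Upf1 lay between -1.11 and -1.07 and stayed called under all alternatives run. Members called lower numbered 34 with DESeq2 and with edgeR, 28 with total-count factors, 29 without independent filtering, 25 with the replicate block and 26 to 32 with a library left out. Members called higher numbered 5, 6 with edgeR, 3 with the replicate block and 4 to 5 with a library left out. Deviations from the group means correlated at -0.0861 and -0.0748 for the 2 shared replicate numbers. With 2 siCtl libraries, whose deviations mirror each other, these values are not independent. They cannot settle whether libraries with the same number were paired. The median log2 fold change of the members was -0.22, -0.20 with total-count factors (all genes 0.02) and -0.24 to -0.20 with a library left out. With total-count factors, Eif2b3, Eif2d, Eif3a, Eif3l, Eif4h and Eif5a2 lost their calls, and with the replicate block these and Eif1a, Eif4e3, Eef1d, Eef1akmt1 and Eef1akmt2. Values near 0 that were not called changed sign: Eif1b to -0.0013 with TMM factors, -0.016 with the replicate block and -0.016 to 0.028 with a library left out; Eif1ad to 0.0029 with edgeR, 0.019 with total-count factors, 0.0017 with the count minimum and -0.026 to 0.016 with a library left out; Eif5b to 0.013 with the replicate block and -0.15 to 0.055 with a library left out; Eif2b1 to -0.0024 with the replicate block and -0.0030 to 0.067 with a library left out; Eif3i to -0.0033 to 0.070 with a library left out. The causes were not tested. Size factors cancel in paralog ratios, so scaling alternatives were not run for them. Per union exon length, Eef1a1, Eef2 and Eif5a kept ranks 1, 2 and 3, but the highest member became Eif2b2 in the eIF2 and eIF2B group, Eif3c in eIF3 and Eef1akmt1 among the modifying enzymes.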
